A study of Rattus norvegicus with 11 samples.

Results

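Oxidative phosphorylation genes were followed in the ileum of rats with severe acute pancreatitis (SAP) and after JZL184, an inhibitor of monoacylglycerol lipase (MAGL), the enzyme that breaks down the endocannabinoid 2-arachidonoylglycerol. The genes were taken by their symbols and position. The nuclear group held the 94 protein-coding rows of the count table whose symbols begin as those of complex I (Nduf followed by a, b, c, s or v), complex III (Uqcr), complex IV (Cox4 to Cox8) and ATP synthase (Atp5) do, with Sdha, Sdhb, Sdhc and Sdhd of complex II. The mitochondrial group held the 13 protein-coding rows of the mitochondrial chromosome (chrMT). Together these were 107 of 18950 protein-coding rows. The symbol rule also took in 8 assembly factors of complex I named Ndufaf, the ATP synthase inhibitor Atp5if1 and 5 copies named after a member (Atp5hl1, Cox7a2l2, Ndufa10l1, Ndufa13-ps1 and Ndufb4l1-ps1).

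Ileal tissue of SD rats of 6 to 8 weeks of age was sequenced in 11 stranded mRNA libraries, 3 of the control group, 4 of the SAP group and 4 of the JZL184 group. The labels number the libraries without saying that each came from its own rat, so that p-values measure the spread between these samples only. SAP was induced by injecting 3% sodium taurocholate into the pancreatic duct. After 24 h, JZL184 rats received 10 mg/kg JZL184 in saline, ethanol and Tween-80 into the peritoneum, and control and SAP rats received vehicle. All were killed 24 h later. The JZL184 rats also had pancreatitis. The surgery that control rats had is not described apart from the common protocol, the labels give a control plasmid as their treatment, and the titles of the SAP samples carry the word oil. There was no group that received JZL184 without pancreatitis. The labels name an intestinal epithelial cell although the source is tissue, which also holds muscle, immune and nerve cells. In such bulk RNA, fewer cells of a type and less RNA per cell cannot be told apart.

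The mitochondrial respiratory chain moves electrons from NADH through complex I, and from succinate through complex II, to ubiquinone, then through complex III and cytochrome c to complex IV, where oxygen is reduced. Complexes I, III and IV pump protons across the inner membrane, and ATP synthase uses the returning protons to make ATP. Most subunits are encoded in the nucleus, while a small core of complexes I, III and IV and of ATP synthase is transcribed inside the mitochondrion from long shared transcripts that are cut at the transfer RNAs. Absorptive enterocytes, which take up nutrients by active transport, are rich in mitochondria.

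Between 26341299 and 33847135 reads per library were counted on genes. Control libraries 1 and 2 nearly matched (chi-square of 2.81 per gene, against 77.5 to 563 for the other pairs within a group) and were counted as 1 sample, so that n was 2 for control. SAP libraries 1 and 2 stood apart from SAP libraries 3 and 4. Genes of up to 1000 bases lay at a median of -0.75 and -0.83 (log2, relative to the mean of all samples) in SAP libraries 1 and 2 and between -0.14 and 0.47 in all other samples. SAP library 2 had 20 reads on Y-linked genes and 7826 on Xist, where the methods name male rats and the other libraries had at least 1222 and at most 56. JZL184 library 3 had a summed level of 1772 CPM (reads scaled to the size of the library) on 14 enterocyte markers, against 10532 to 41820 in the other libraries, with none of the 14 at 0. The medians of the members are given with and without these libraries.

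Levels were compared between genes as FPKM, which the authors divided by gene length and library size. The highest level was that of ATP6, an ATP synthase subunit of chrMT, with a mean of 16546 FPKM over the 10 samples. ND6, a complex I subunit and the one chrMT protein encoded on the opposite strand, had the lowest chrMT level, 66.3 FPKM. Among nuclear members, the ATP synthase inhibitor Atp5if1 (3093 FPKM) and the complex IV subunit Cox4i1 (3039 FPKM) led. The median over 94 nuclear members was 115 FPKM, and 52 lay above 100 FPKM. Only 5 had a mean below 1 FPKM, namely Cox6b2, Ndufa4l2, Ndufa13-ps1, Ndufs6 and Ndufb4l1-ps1, the last being the lowest of all at 0.041. Ndufs6, a subunit of complex I, had 15 reads in the 11 libraries together. Cox7a1 and Cox8b had no protein-coding row in the count table and could not be analysed. Reads that align to several places were not counted, so that members with near-identical copies, such as those the 5 copies are named after, are uncertain. ATP8 overlaps ATP6, and ND4L overlaps ND4, and how their shared reads were assigned is not given.

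Promoters were read to see what the nuclear members share in sequence. RefSeq promoters of build GRCr8, 300 bases each with 250 before the gene's start, were found for 80 of the 94. The sequences GCGCNTGCG (NRF1), CCGGAAG (ETS factors such as GABPA), GCCATNTT (YY1) and TCAAGGTCA (ESRRA), where N is any base, were searched on both strands. NRF1 letters stood in 22 member promoters (27.5%) against 5.75% of all 33469, and ETS letters in 23 (28.8%) against 8.75%. YY1 letters stood in 31 (38.8%) against 6.96%, and ESRRA letters in 2 (2.5%) against 0.433%. Among the 12896 promoters of expressed protein-coding genes, NRF1 letters stood in 11.2%, ETS in 15.3%, YY1 in 8.9% and ESRRA in 0.326%. At least 1 of the 4 was found in 55 of 80 (68.8%) and in 19.2% of all promoters. Such matches are descriptions and do not show binding.

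The 250 bases before the start are shown for Ndufb2, the member called in JZL184, for Ndufs8, which was next to it, and for Ndufs1, Sdha and Ndufaf4, which did not follow the others, with matches in capitals. They lie at chr4:69334057-69334306 (plus strand), chr1:210573699-210573948 (minus), chr9:72073606-72073855 (minus), chr1:30764303-30764552 (plus) and chr5:43401545-43401794 (plus) of GRCr8, in this order.
Ndufb2: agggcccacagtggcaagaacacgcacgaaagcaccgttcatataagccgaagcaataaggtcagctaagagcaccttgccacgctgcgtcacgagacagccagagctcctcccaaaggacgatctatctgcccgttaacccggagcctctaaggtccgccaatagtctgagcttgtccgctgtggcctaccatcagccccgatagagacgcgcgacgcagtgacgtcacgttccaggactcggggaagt
Ndufs8: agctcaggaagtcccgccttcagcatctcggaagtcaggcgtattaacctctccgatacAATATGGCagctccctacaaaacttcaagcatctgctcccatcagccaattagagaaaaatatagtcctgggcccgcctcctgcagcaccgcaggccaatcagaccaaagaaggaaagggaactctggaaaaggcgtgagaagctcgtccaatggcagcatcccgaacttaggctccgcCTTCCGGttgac
Ndufs1: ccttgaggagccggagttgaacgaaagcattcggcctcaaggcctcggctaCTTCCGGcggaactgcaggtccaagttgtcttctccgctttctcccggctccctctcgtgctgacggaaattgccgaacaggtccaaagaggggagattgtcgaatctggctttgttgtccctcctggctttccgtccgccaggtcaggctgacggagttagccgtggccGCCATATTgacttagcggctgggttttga
Sdha: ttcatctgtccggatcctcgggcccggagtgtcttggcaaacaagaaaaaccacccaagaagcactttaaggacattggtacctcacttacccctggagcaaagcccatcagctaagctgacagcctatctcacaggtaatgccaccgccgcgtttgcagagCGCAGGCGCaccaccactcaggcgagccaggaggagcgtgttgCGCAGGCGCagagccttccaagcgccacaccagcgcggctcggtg
Ndufaf4: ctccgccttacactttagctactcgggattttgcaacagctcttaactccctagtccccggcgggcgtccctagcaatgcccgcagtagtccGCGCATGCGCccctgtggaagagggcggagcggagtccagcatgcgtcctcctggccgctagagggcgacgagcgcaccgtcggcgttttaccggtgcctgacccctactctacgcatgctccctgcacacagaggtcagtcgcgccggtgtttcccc

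No match lies in the Ndufb2 promoter. Ndufs8 and Ndufs1, whose differences in SAP had opposite signs, both hold an ETS and a YY1 match. The Sdha promoter holds 2 NRF1 matches in the part shown, and in Ndufaf4 a single run of 10 bases matches NRF1 on both strands.

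The chrMT genes took 2.70, 2.73 and 3.28% of the counted reads in control libraries 1 to 3. In SAP libraries 1 to 4 this share was 5.20, 6.08, 3.72 and 2.82%. In JZL184 libraries 1 to 4 it was 6.10, 3.44, 6.75 and 4.55%. All JZL184 libraries thus lay above every control library, while the SAP group overlapped with control through library 4. Group means were 2.99% ± 0.398 (SD, n = 2) for control, 4.45% ± 1.46 (n = 4) for SAP and 5.21% ± 1.5 (n = 4) for JZL184.

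The 94 nuclear members took 2.84, 2.87 and 2.78% of the reads in the control libraries. Their share was 1.6, 1.46, 2.42 and 2.57% in SAP libraries 1 to 4. In JZL184 libraries 1 to 4 it was 2.12, 2.54, 2.50 and 2.03%. Every SAP and every JZL184 library lay below all control libraries. The ratio of chrMT to nuclear member reads was 0.951, 0.951 and 1.18 in the control libraries. It was 3.26, 4.16, 1.54 and 1.10 in the SAP libraries, the last of which lay within the control range. It was 2.87, 1.35, 2.70 and 2.24 in the JZL184 libraries, all above control. Over the samples this made 1.07 ± 0.162 (SD, n = 2) for control, 2.51 ± 1.44 (n = 4) for SAP and 2.29 ± 0.680 (n = 4) for JZL184.

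**Figure D1:**
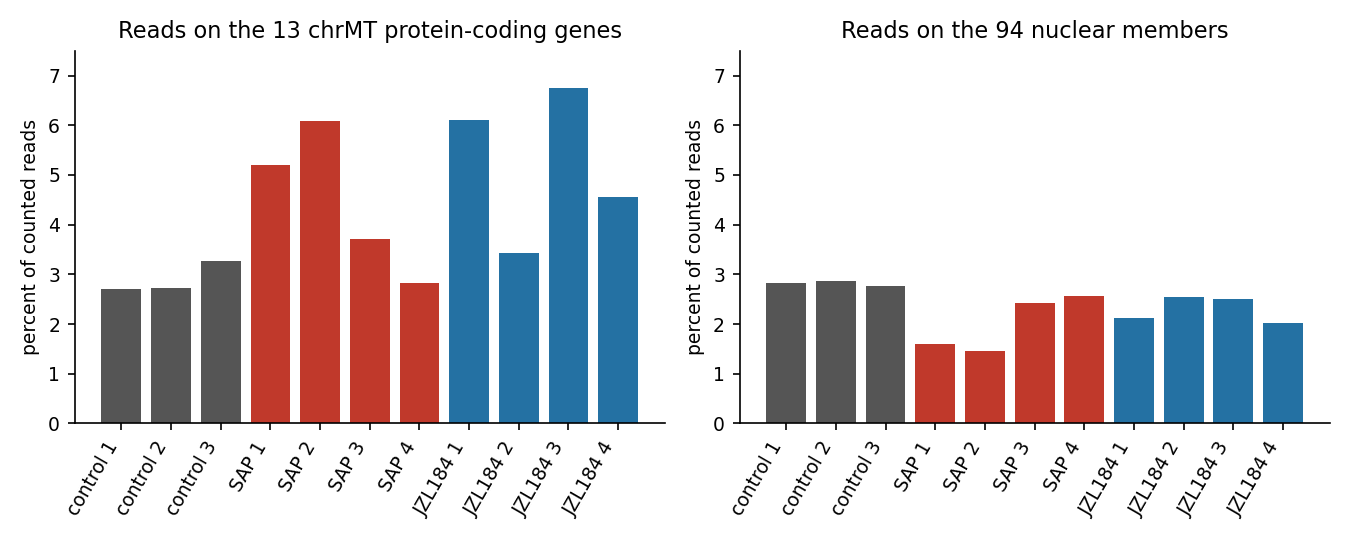
Percent of counted reads on the 13 chrMT protein-coding genes (left) and on the 94 nuclear members (right) in each library (grey control, red SAP, blue JZL184). The chrMT share lies between 2.70 and 3.28% in control and reaches 6.08% in SAP and 6.75% in JZL184, while the nuclear share is lowest in SAP libraries 1 and 2 at 1.6 and 1.46%.

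SAP was first compared with control, which asks what pancreatitis did to these transcripts. Nuclear members were lower in SAP in 86 of 91 tested, with a median log2 fold change of -0.68, where the median of all 16029 genes tested was 0.06 and 46.8% of them were lower and 53.2% higher. In edgeR's quasi-likelihood test, a call needed a p of under 0.05 after Benjamini-Hochberg adjustment and a change of over 2-fold in either direction. None of the nuclear members met this, nor did any gene (0 of 16029, 0%). At an unadjusted p below 0.05, 7 nuclear members were lower and none was higher, against 3.40% of all genes lower and 5.69% higher. DESeq2 called none of them, and with control libraries 1 and 2 kept separate it called Ndufb2 and Ndufs8 lower (adjusted p = 0.0347 and 0.0450), where that fit called 1.51% of 23265 genes lower and 4.66% higher. In normalized CPM, 51 of the 91 lay below every control sample in every SAP sample and none lay above, where 11.9% of all genes lay below and 11.3% above in this way. The smallest adjusted p of a nuclear member was 0.459.

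This shift was uneven between libraries. Relative to the mean of the control samples, the median log2 ratio of the nuclear members was -1.15 and -1.39 in SAP libraries 1 and 2 and -0.29 and -0.19 in SAP libraries 3 and 4. Without SAP libraries 1 and 2, the median log2 fold change was -0.22 with 77 of 91 lower and 0 called, and 2 lower at an unadjusted p below 0.05. The count at that threshold was 0 without SAP library 1, 1 without library 2, 3 without library 3 and 30 without library 4. The share of all genes at that threshold in these fits is not given here, so these counts have no background beside them. Of all genes, 0% were called without SAP library 1, 2 or 3, and 0.0189% without library 4. With SAP libraries 1 and 2 alone, the median was -1.27, and 64 members were called lower and 1 higher, in a fit that called 16.9% of 15764 genes lower and 20.2% higher.

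**Figure D2:**
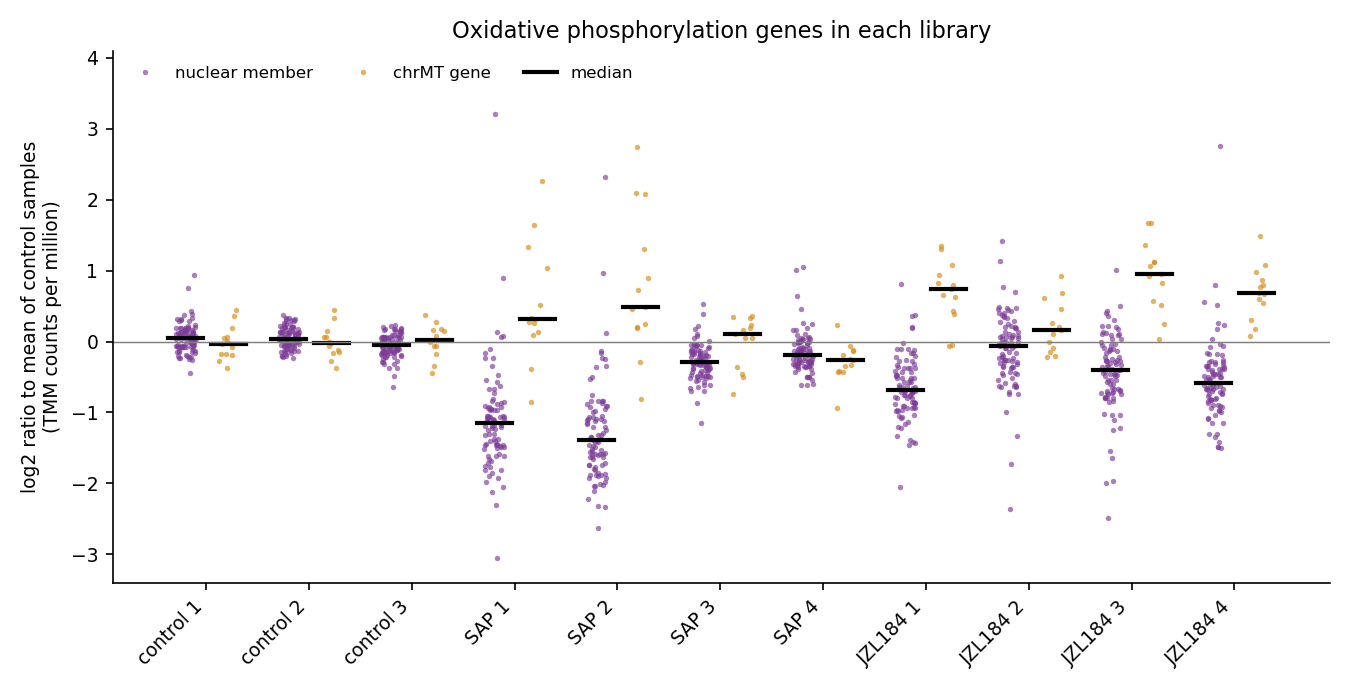
Log2 ratio of TMM-normalized CPM to the mean of the control samples for each nuclear member (91 with enough reads) and each of the 13 chrMT genes, by library, with black bars for medians. Nuclear medians are lowest in SAP libraries 1 and 2 (-1.15 and -1.39), and chrMT medians are highest in JZL184 library 3 (0.95).

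Complex I had 34 of 35 tested subunits lower in SAP, with a median log2 fold change of -0.70, and 24 of them did not overlap with control. Ndufb2, an accessory subunit of the membrane arm, had 520, 526 and 432 FPKM in control libraries 1 to 3. In SAP libraries 1 to 4 it had 153, 117, 285 and 317 FPKM. All SAP values lay below all control values, with a log2 fold change of -1.27 (SE 0.48, edgeR adjusted p = 0.459; exact permutation p = 0.133, n = 4 and 2, smallest possible 0.0667). Ndufs8, which carries iron-sulfur clusters, went from 33.6, 34.7 and 27.2 FPKM in control to 13.5, 10.4, 22.6 and 20.4 FPKM in SAP. Its log2 fold change was -1.03 (SE 0.41). Ndufv1, the flavin-carrying subunit that takes electrons from NADH, had a log2 fold change of -0.88 (SE 0.36), and Ndufb8 had -1.0 (SE 0.46), neither with overlap.

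Ndufs1, the largest iron-sulfur subunit of complex I, differed from the rest. It had 22.1, 21.6 and 30.2 FPKM in control libraries and 58.2, 62.7, 31.9 and 21.2 FPKM in SAP libraries, so that SAP libraries 1 to 3 lay above every control library and library 4 below. Its log2 fold change was 0.54 (SE 0.43, edgeR adjusted p = 0.535). Of the 8 assembly factors, 7 were lower, with a median of -0.30, and Ndufaf4 was at 0.04 (SE 0.28).

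In complex II, which also belongs to the tricarboxylic acid cycle, Sdha, the flavoprotein that oxidizes succinate, had 137, 140 and 155 FPKM in control and 197, 197, 168 and 145 FPKM in SAP. The groups overlapped and the log2 fold change was 0.09 (SE 0.26). Its partner Sdhb was lower without overlap, from 200, 198 and 196 FPKM in control to 134, 127, 195 and 170 FPKM in SAP, at -0.49 (SE 0.32). The membrane anchor Sdhc lay at -0.77 (SE 0.37). All 8 complex III subunits were lower, with a median of -0.60. The core subunit Uqcrc1 had 360, 355 and 246 FPKM in control and 173, 194, 232 and 214 FPKM in SAP (log2 fold change -0.74, SE 0.32), and the Rieske protein Uqcrfs1 lay at -0.54 (SE 0.36) with overlap.

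Of 16 complex IV subunits, 15 were lower, with a median of -0.72. Cox4i1, the regulatory subunit found in most tissues, had 4299, 4332 and 3548 FPKM in control and 1283, 1207, 2724 and 3793 FPKM in SAP. SAP library 4 lay within the control range, and the log2 fold change was -0.93 (SE 0.56). Cox6a1 had 859, 918 and 844 FPKM in control and 311, 285, 586 and 654 FPKM in SAP, without overlap (-1.06, SE 0.45). Cox7b, from 966, 1042 and 1318 FPKM to 736, 729, 948 and 768 FPKM, had -0.70 (SE 0.29, edgeR adjusted p = 0.459). Further values were -0.78 (SE 0.43) for Cox5a, -0.77 (SE 0.50) for Cox7a2, -0.66 (SE 0.33) for Cox8a and -0.38 (SE 0.37) for Ndufa4, once counted to complex I and now to complex IV.

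All 16 ATP synthase subunits were lower, with a median of -0.68, and 11 did not overlap with control. The catalytic subunit Atp5f1b had 1601, 1565 and 1256 FPKM in control and 905, 849, 1191 and 1205 FPKM in SAP (-0.61, SE 0.35), and its partner Atp5f1a had -0.56 (SE 0.32). The 3 genes that encode the same subunit c of the membrane ring, Atp5mc1, Atp5mc2 and Atp5mc3, had -0.74 (SE 0.41), -0.51 (SE 0.54) and -0.68 (SE 0.37). Atp5if1 went from 3826, 3880 and 3861 FPKM to 1718, 1599, 3038 and 4197 FPKM, the last above all control libraries, and had -0.68 (SE 0.49). None of these values passed the test.

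**Figure D3:**
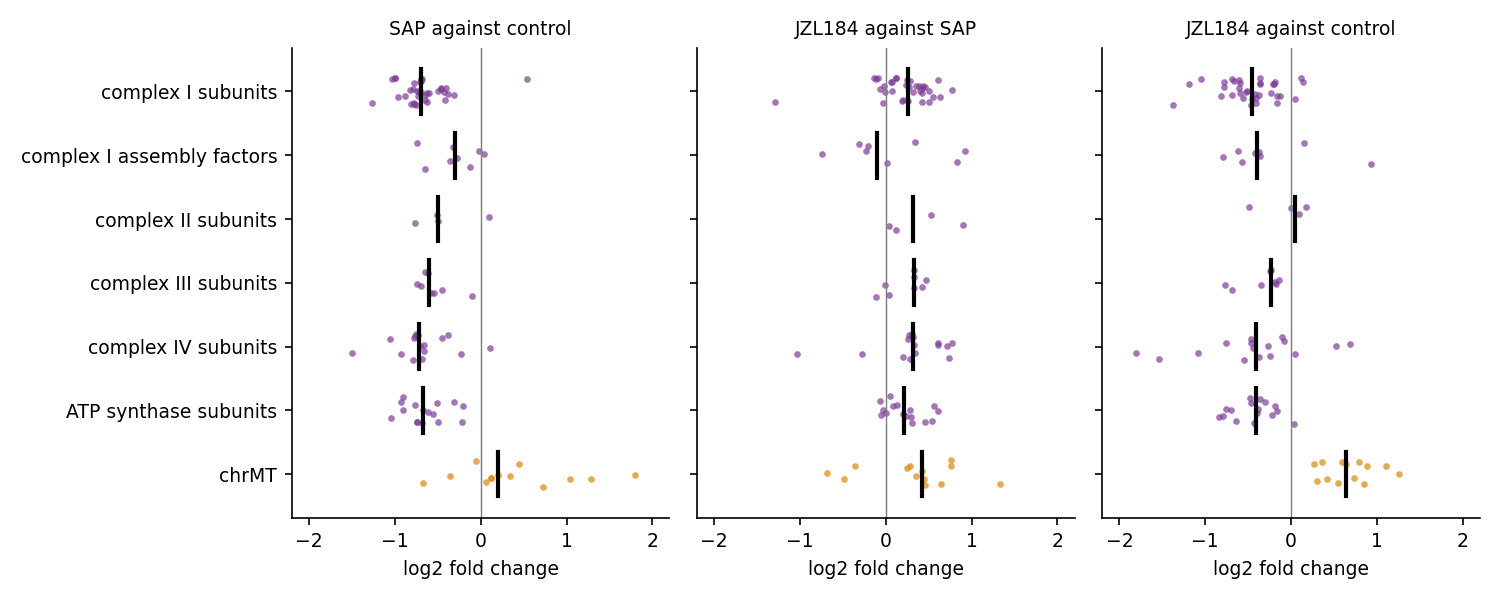
Log2 fold change of each tested subunit by complex, with black bars for medians, in the 3 comparisons (Atp5if1 and the 5 copies are left out). In SAP against control the nuclear complexes have medians between -0.50 and -0.72 and assembly factors -0.30, while the chrMT genes spread from -0.67 to 1.79.

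Gene length moved with this difference. Nuclear members are short, with a median of 880 bases against 3477 for all genes tested, and 10 of 93 with a length exceeded 2000 bases. Among all genes of up to 1000 bases the median log2 fold change was -0.44 (1167 genes), and over 4000 bases it was 0.42 (6711 genes). Nuclear members lay lower than genes of their own length, at -0.70 for the 51 of up to 1000 bases, and at -0.63 for the 30 of 1000 to 2000 bases where all genes of that length had -0.30. With length offsets, which take out the trend of each library on gene length, the median of the nuclear members was -0.26, with 72 lower and 19 higher. Ndufs1 and Sdha, both higher in SAP libraries 1 and 2, and Ndufaf4 were among the 10 members over 2000 bases.

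**Figure D4:**
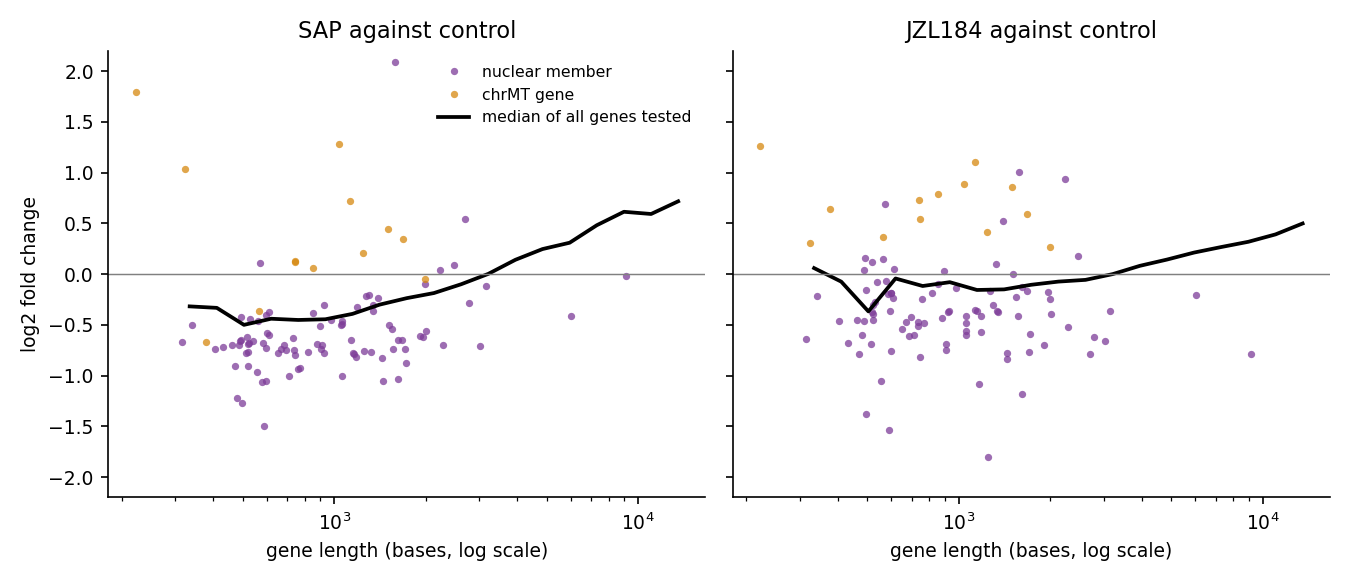
Log2 fold change against gene length (log scale) in SAP against control (left) and JZL184 against control (right), for nuclear members, chrMT genes and the running median of all genes tested. In SAP against control the line rises from short to long genes and most nuclear members lie below it, whereas in JZL184 against control the line lies nearer 0 for short genes (a median of -0.07 up to 1000 bases).

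Markers of cell types differed as well. The summed level of the 14 enterocyte markers was 35721 to 38972 CPM in control and 10532 to 29050 CPM in SAP, lowest in SAP libraries 1 and 2, and none of the 14 was at 0. Of the 14, 9 were lower and 5 higher (median log2 fold change -0.46). Cdh17, named after its values were seen, went against the sum, with 541 to 576 CPM in control and 1175, 1149, 696 and 773 CPM in SAP libraries 1 to 4. The 10 lymphocyte markers summed to 383 to 390 CPM in control and 81.2 to 355 CPM in SAP, and the 9 smooth muscle markers to 4933 to 5954 CPM and 2581 to 4991 CPM, with none at 0. Their part in the difference of the nuclear members was not tested.

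The chrMT genes did not share the direction of the nuclear members in SAP. Of 13, 10 were higher and 3 lower, with a median log2 fold change of 0.21, none called and none past an unadjusted p of 0.05. Without SAP libraries 1 and 2 the median was -0.03, with 5 higher and 8 lower. With length offsets it was 0.80, with all 13 higher. Relative to control, the median log2 ratio was 0.32, 0.48, 0.10 and -0.27 in SAP libraries 1 to 4.

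The 13 genes differed among themselves in SAP libraries 1 and 2. ATP8 had 1985, 1953 and 2120 FPKM in control, and 12031, 17004, 2801 and 1566 FPKM in SAP libraries 1 to 4. Its log2 fold change was 1.79 (SE 0.90, edgeR adjusted p = 0.459). ATP6, which lies beside it on the same transcript, had 11170, 11341 and 12596 FPKM in control and 15505, 17612, 15261 and 10609 FPKM in SAP (0.13, SE 0.32). The ratio of ATP8 to ATP6 reads was 0.0532, 0.0516 and 0.0504 in control and 0.232, 0.289, 0.0550 and 0.0442 in SAP libraries 1 to 4. SAP libraries 1 and 2 thus stood far above all others in this ratio, since the JZL184 libraries had between 0.0426 and 0.0910.

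ND1 of complex I behaved like ATP8, with 1468, 1492 and 1759 FPKM in control and 6126, 8601, 2241 and 1392 FPKM in SAP (1.28, SE 0.69). ND4L had 196, 196 and 354 FPKM in control and 808, 1388, 210 and 214 FPKM in SAP (1.04, SE 0.77), and ND2 had a log2 fold change of 0.72 (SE 0.50). Of the chrMT reads, ND1 took 5.54 to 5.58% in control, 12.4 and 14.7% in SAP libraries 1 and 2, and 6.21 and 5.09% in SAP libraries 3 and 4. ND3 and ND6 went the other way in every SAP library. ND3 had 94.1, 91.8 and 61.8 FPKM in control and 51.3, 53.5, 58.5 and 57.1 FPKM in SAP (-0.67, SE 0.31, edgeR adjusted p = 0.459; exact permutation p = 0.0667, the smallest possible). ND6 had 66.8, 64.4 and 55.9 FPKM in control. Its SAP values of 56.3, 61.4, 51.3 and 45.7 FPKM overlapped with these in FPKM, but in TMM-normalized CPM the groups did not overlap (-0.36, SE 0.27). With length offsets the signs turned, to 0.063 for ND3 and 0.37 for ND6. The remaining 6 genes lay between -0.05 (ND5, SE 0.55) and 0.45 (ND4, SE 0.38), with COX1 at 0.35, CYTB at 0.21, COX2 at 0.12 and COX3 at 0.06.

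**Figure D5:**
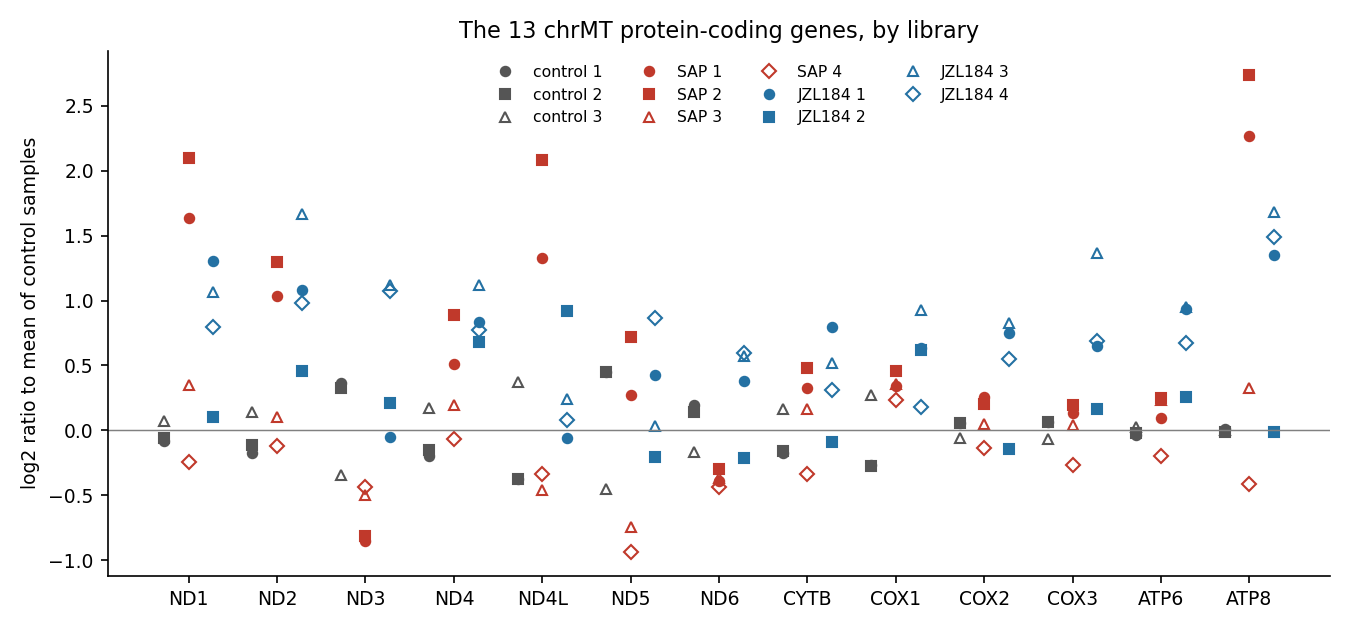
Log2 ratio of TMM-normalized CPM to the mean of the control samples for the 13 chrMT genes (grey control, red SAP, blue JZL184, with a marker for each library number). SAP libraries 1 and 2 are the 2 highest points for ND1, ND4L and ATP8, and all 4 SAP libraries lie below every control library for ND3 and ND6.

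JZL184 was then compared with SAP, the comparison that bears on the treatment. Nuclear members were higher in JZL184 in 70 of 90 tested, with a median log2 fold change of 0.28, where all 15308 genes had -0.05 and 47.4% of them were higher and 52.6% lower. None was called, nor was any gene (0 of 15308, 0%). At an unadjusted p below 0.05, 4 were higher and 1 lower, against 10.3% of all genes higher and 11.1% lower, and DESeq2 called no nuclear member. Only Ndufaf4 and Sdhc were higher without overlap and none was lower, against 6.23 and 5.59% of all genes. The direction turned without SAP libraries 1 and 2, where the median was -0.14 with 71 of 91 lower, and with length offsets it was 0.02 with 46 higher and 44 lower. The median was 0.27 when JZL184 library 3 was left out, but 0.14 without SAP library 1 and 0.11 without SAP library 2. It was 0.15 without JZL184 library 2, and 0.42 and 0.49 without SAP library 3 and 4. In this comparison all 1080 genes of up to 1000 bases had a median of 0.33, and the 50 nuclear members of that length had 0.32. From 1000 to 2000 bases all genes had 0.15 and the 30 nuclear members 0.07.

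Ndufaf4, an assembly factor needed to build complex I, had 16.8, 14.4, 15.4 and 14.4 FPKM in SAP libraries 1 to 4 and 25.5, 26.4, 29.0 and 22.4 FPKM in JZL184 libraries 1 to 4. The groups were well apart, with a log2 fold change of 0.92 (SE 0.21, edgeR adjusted p = 0.0875; exact permutation p = 0.0286, n = 4 and 4, the smallest possible), and the call threshold was not reached. Sdhc had 145, 115, 195 and 209 FPKM in SAP and 242, 324, 345 and 206 FPKM in JZL184 (0.89, SE 0.33, edgeR adjusted p = 0.174). In FPKM the lowest JZL184 value lay just under the highest SAP value. Ndufs1 had 36.7, 7.15, 9.74 and 10.0 FPKM in JZL184, with library 1 apart from the others, against 58.2, 62.7, 31.9 and 21.2 FPKM in SAP (-1.30, SE 0.51, edgeR adjusted p = 0.193). Without JZL184 library 1, Ndufs1 was called lower (-2.03, adjusted p = 0.0307).

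Of the chrMT genes, 10 were higher and 3 lower in JZL184, with a median of 0.42 and 0 called. At an unadjusted p below 0.05, 3 were higher, against 10.3% of all genes. Without overlap, 3 were higher and none lower, against 6.23 and 5.59% of all genes. ND3 had 81.2, 80.8, 183 and 158 FPKM in JZL184 and 51.3 to 58.5 FPKM in SAP, without overlap (1.33, SE 0.31, edgeR adjusted p = 0.0909; exact permutation p = 0.0286). DESeq2 called ND3 (adjusted p = 0.00677), as it did 2.73% of 23991 genes higher, and with length offsets its log2 fold change was 0.74 (edgeR adjusted p = 0.236). ND6 had 87.7, 48.1, 100 and 90.8 FPKM in JZL184, and its difference of 0.75 (SE 0.24, edgeR adjusted p = 0.143) was without overlap in TMM-normalized CPM. ATP6 had 25216, 13123, 25496 and 18784 FPKM in JZL184 and 0.64 (SE 0.32), also without overlap in CPM, where JZL184 library 2 lay just above SAP library 2. COX3 of complex IV had 0.76 (SE 0.33) with overlap. The 3 lower genes were those highest in SAP libraries 1 and 2, ATP8 at -0.49 (SE 0.66), ND1 at -0.35 (SE 0.52) and ND4L at -0.69 (SE 0.55). The other 6 genes lay between 0.24 (CYTB) and 0.45 (COX2). Without SAP libraries 1 and 2, all 13 were higher with a median of 0.80, without JZL184 library 3 the median was 0.34, and with length offsets the median was 0.09 with 7 higher.

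JZL184 rats were last compared with control rats, and these comparisons share their samples with those above. Here 343 of 15916 genes were called (2.16%), 162 higher (1.02%) and 181 lower (1.14%). Of the nuclear members, 78 of 91 were lower, with a median of -0.39 where all genes had 0.08 and 46.0% were lower, and 1 was called lower. Without overlap, 40 were lower and 2 higher, against 19.3 and 18.9% of all genes. At an unadjusted p below 0.05, 14 were lower and 1 higher, against 12.5 and 13.8%. The count of lower members at that threshold was 30 without JZL184 library 2, 5 without library 4 and 11 without library 1 or library 3. The share of all genes at that threshold in these fits is not given here, so these counts have no background beside them. Of all genes, 1867, 25, 860 and 78 were called without JZL184 libraries 1, 2, 3 and 4, against 343 with all libraries. Relative to control, the median log2 ratio was -0.68, -0.06, -0.40 and -0.58 in JZL184 libraries 1 to 4, so that library 2 was near control. Without JZL184 library 3, the median over members was -0.38, and with length offsets it was -0.25 with 71 of 91 lower. In this comparison all genes of up to 1000 bases had a median of -0.07, and the 51 nuclear members of that length had -0.39.

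The member called was Ndufb2, with 196, 219, 169 and 168 FPKM in JZL184 libraries against 520, 526 and 432 FPKM in control (log2 fold change -1.38, SE 0.28, edgeR adjusted p = 0.0489; exact permutation p = 0.0667, n = 4 and 2, the smallest possible). The call rests on few control samples. It was lost without control library 3 (edgeR adjusted p = 0.182) or control libraries 1 and 2 (0.554), without JZL184 library 2 (0.0729) or 4 (0.128), when the 3 groups were fitted together (0.102), with DESeq2's size factors in edgeR (0.0503), with chrMT rows removed before scaling (0.0519) and with length offsets (0.0515), and DESeq2 made it (0.00418). Leaving out JZL184 library 3 kept it (0.0447). Ndufs8 had 12.7, 16.8, 14.4 and 11.3 FPKM in JZL184 (-1.18, SE 0.29, edgeR adjusted p = 0.0684). Ndufa11, another membrane arm subunit, went from 107, 116 and 95.3 FPKM in control to 45.2, 61.5, 55.6 and 41.4 FPKM (-1.05, SE 0.29, adjusted p = 0.0836). DESeq2 also called Ndufs8 (0.0255) and Ndufa11 (0.0498), which makes 3 nuclear members where it called 3.73% of 23543 genes lower and 4.34% higher.

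Among complex I subunits, 32 of 35 were lower, with a median of -0.45. Ndufs1 had -0.78 (SE 0.58), Ndufb8 -0.60 (SE 0.30) and Ndufv1 -0.59 (SE 0.29). Ndufaf4 went the other way, from 10.7, 10.9 and 15.8 FPKM in control to between 22.4 and 29.0 FPKM in JZL184 (0.94, SE 0.28, edgeR adjusted p = 0.0928). Complex II had 3 of 4 subunits at or above control, with Sdha at 0.18 (SE 0.28) and Sdhc at 0.10 (SE 0.33), while Sdhb lay below without overlap at -0.48 (SE 0.28). All 8 complex III subunits were lower, with Uqcrc1 at 176, 177, 198 and 178 FPKM (-0.77, SE 0.28, adjusted p = 0.138) and Uqcrfs1 at -0.23 (SE 0.25).

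Of 16 complex IV subunits, 13 were lower, with a median of -0.41. Cox6a1 had -0.76 (SE 0.35), Cox5a -0.54 (SE 0.29), Cox7b -0.46 (SE 0.33), Cox7a2 -0.45 (SE 0.32), Cox4i1 -0.24 (SE 0.36), Ndufa4 -0.10 (SE 0.26) and Cox8a -0.08 (SE 0.38). Cox7a2l, which joins complexes III and IV and is named here because it was the other member higher without overlap, had 0.52. ATP synthase had 15 of 16 subunits lower with a median of -0.41. Atp5f1b had 918, 834, 938 and 927 FPKM in JZL184, below all control libraries (-0.69, SE 0.28, adjusted p = 0.167). Atp5mc1 had -0.75 (SE 0.31), Atp5mc3 -0.43 (SE 0.31), Atp5f1a -0.39 (SE 0.27), Atp5if1 -0.31 (SE 0.31) and Atp5mc2 0.03 (SE 0.36).

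All 13 chrMT genes were higher in JZL184 than in control, with a median of 0.64, where 54.0% of all genes were higher, and 0 were called. At an unadjusted p below 0.05, 3 were higher and none lower, against 13.8 and 12.5% of all genes. ND2, ND4, ND1, ATP6 and COX3 did not overlap, where 18.9% of all genes were higher without overlap. ND2 went from 1386, 1446 and 1858 FPKM in control to 3799, 2054, 5697 and 3175 FPKM (1.11, SE 0.40, edgeR adjusted p = 0.133). ND4 went from 802, 830 and 1115 FPKM to 1883, 1412, 2290 and 1614 FPKM (0.86, SE 0.31, adjusted p = 0.133). ATP8, at 5788, 1866, 7241 and 5705 FPKM, had the largest difference (1.26, SE 0.47, adjusted p = 0.142) but overlapped through library 2.

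Further chrMT values were 0.89 (SE 0.39) for ND1, 0.79 (SE 0.39) for COX3, 0.73 (SE 0.35) for ATP6, 0.64 (SE 0.42) for ND3, 0.60 (SE 0.36) for COX1, 0.55 (SE 0.37) for COX2, 0.42 (SE 0.35) for CYTB, 0.36 (SE 0.31) for ND6, 0.31 (SE 0.37) for ND4L and 0.27 (SE 0.41) for ND5. Relative to control, the median log2 ratio of the 13 was 0.75, 0.17, 0.95 and 0.69 in JZL184 libraries 1 to 4. Library 3, which had the fewest reads on enterocyte markers, had the highest, and without it the median log2 fold change was 0.48 with all 13 still higher. The enterocyte markers summed to 32314, 41820, 1772 and 38656 CPM in JZL184 libraries 1 to 4. Their part in the chrMT difference was not tested.

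Some complex IV subunits have isoforms with narrower use, and these were low in ileum. Cox4i2, the isoform of lung and vessels, had 8.97, 8.98 and 6.15 FPKM in control, 1.78, 3.00, 7.09 and 7.51 FPKM in SAP, and 3.96, 4.39, 3.79 and 2.58 FPKM in JZL184. It was thus 0.173 to 0.209% of Cox4i1 in control, 0.139, 0.249, 0.260 and 0.198% in SAP libraries 1 to 4, and 0.0841 to 0.165% in JZL184. Against control its log2 fold change was -0.78 (SE 0.63) in SAP and -1.08 (SE 0.36, edgeR adjusted p = 0.115) in JZL184, the latter without overlap. Ndufa4l2, a relative of Ndufa4 that is induced by low oxygen, had 1.41, 0.94 and 0.61 FPKM in control and 0.37, 0.11, 0.20 and 0.38 FPKM in JZL184 (-1.81, SE 0.60, edgeR adjusted p = 0.114), with between 4 and 48 reads per library. In SAP it lay between 0.46 and 0.75 FPKM (-0.76, SE 0.49). Cox6a2, the heart and muscle isoform, had between 1.04 and 6.42 FPKM over the 11 libraries, with log2 fold changes of 0.10 (SE 0.71) in SAP and 0.69 (SE 0.52) in JZL184 against control. Ndufa10l1, a copy of Ndufa10 named here because it had the largest positive log2 fold change in SAP (2.09, SE 0.90), had 4.70 and 2.57 FPKM in SAP libraries 1 and 2 and 0.62 and 0.82 FPKM in SAP libraries 3 and 4, with 5 to 252 reads per library.

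Other genes of the pathway were followed through 8 lists. With all libraries, edgeR's test called none of their members in any comparison. In SAP against control, the complex IV assembly list had 17 of 22 lower (median -0.45) and complex I assembly 8 of 10 (-0.22). Complex II and III assembly with electron carriers had 10 of 12 lower (-0.26), and the tricarboxylic acid cycle 14 of 21 (-0.43). The tricarboxylic acid cycle list also holds genes of pyruvate dehydrogenase and of its kinases, among them Pdk4. The smallest p of these lists were those of Coa3 (-0.84, SE 0.39), Ecsit (-0.73, SE 0.42), cytochrome c1 gene Cyc1 (-0.95, SE 0.36) and Pdk4, which switches off pyruvate dehydrogenase and was the one of these 4 that was higher (4.80, SE 1.61, edgeR adjusted p = 0.459). Pdk4 was scarcely present in control, with 0.0693 to 0.0823 CPM against 1.49, 6.35, 0.278 and 0.376 CPM in SAP libraries 1 to 4, and it had too few reads to be tested without SAP libraries 1 and 2. Complex V assembly had 3 of 5 lower, with Atpaf2 at -0.59 (SE 0.29), and uncoupling proteins and carriers 7 of 9, with Ucp2 at -1.37 (SE 0.44). Genes of mitochondrial transcription, replication and RNA handling were even, with 13 of 28 higher (median -0.02) and Fastkd3 at 0.97 (SE 0.36). Of 13 nuclear regulators, 10 were higher (median 0.35), with Yy1 at 1.62 (SE 0.73). Yy1 had 7.03 to 16.1 CPM in control and 54.3, 60.4, 17.1 and 13.4 CPM in SAP libraries 1 to 4, so that SAP libraries 1 and 2 stood far above the others. Without these libraries Yy1 was at 0.34 (SE 0.35), and 5 of 12 regulators were higher with a median of -0.01. The medians of the lists named first then were -0.07 for complex IV assembly (15 of 22 lower), -0.03 for complex I assembly (6 of 10), -0.15 for complex II and III assembly (9 of 12) and -0.26 for the tricarboxylic acid cycle (18 of 20).

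In JZL184 against control, the tricarboxylic acid cycle list had 14 of 21 lower, 11 of them without overlap (19.3% of all genes), and Pdk4 at 4.57 (SE 0.96, edgeR adjusted p = 0.0526). All 12 nuclear regulators tested were higher, 3 without overlap (18.9% of all genes), with a median of 0.44 and Gabpa, a subunit of an activator of these genes, at 1.41 (SE 0.42, adjusted p = 0.0928). All genes over 4000 bases had a median of 0.25 in this comparison, and the part of gene length in the lists was not tested. Further smallest p were those of Timmdc1 (-0.73, SE 0.32), Bcs1l (-1.78, SE 0.50), Coa3 (-1.10, SE 0.29), Atpaf2 (-1.10, SE 0.43), Ucp2 (-1.39, SE 0.35) and Polg, the mitochondrial DNA polymerase (-1.49, SE 0.46, adjusted p = 0.0998). In JZL184 against SAP the lists had medians between -0.37 and 0.10, and without SAP libraries 1 and 2 all 12 regulators were higher, with 0 called. Their smallest p were those of Bcs1l (-1.58, SE 0.41, adjusted p = 0.103), Polg (-1.14, SE 0.37), Ppargc1a (1.58, SE 0.68), Taco1 (-1.34, SE 0.52), Ogdh (-1.22, SE 0.51), Slc25a4 (0.58, SE 0.30), Tmem126b (-0.55, SE 0.34) and Dmac2l (-0.57, SE 0.39).

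Of the members that lay below control without overlap in SAP, 43 had a promoter, of which 22 held YY1, 13 NRF1 and 10 ETS letters. Of the 36 other tested members with a promoter, 8 held YY1, 8 NRF1 and 13 ETS letters. The split was taken from these same data, and the difference in motif counts was not tested.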

How the data were processed

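RNA-seq of rat ileum was analysed in 11 libraries. The authors trimmed reads with FASTX-Toolkit, aligned them to mRatBN7.2 with HISAT2 and deposited raw read counts of uniquely aligned reads per gene. Neither the counting tool nor the annotation is stated in the sources used here. The deposited FPKM values are the authors' counts per gene length and library size. Gene length was taken from the ratio of counts to FPKM, scaled by the reads counted in each library. The lengths given in bases are thus relative and approximate, and were not read from an annotation.

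Counts of control libraries 1 and 2 were summed. Genes were filtered with filterByExpr (minimum count 10), normalized by TMM and tested pair by pair with edgeR 4.0.16 (quasi-likelihood) in R 4.3.3, and p-values were adjusted over all genes tested. Calls needed an adjusted p of under 0.05 and a change of over 2-fold. The SE given with a log2 fold change is its absolute value divided by the square root of edgeR's F statistic. It was derived in this way because edgeR's test gives no standard error. Overlap was read from log2 CPM with a prior count of 2. Single members were also tested by two-sided exact permutation. DESeq2 1.42.0, limma 3.58.1 (voom with quality weights), other scalings and filters, length offsets (loess, span 0.3) and left-out libraries were alternatives. The scripts were tested on simulated data.

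The members and lists were chosen with earlier results of these data known. Named were all chrMT genes, nuclear members called or with the 3 smallest p in a comparison, the fixed subunits Ndufs1, Ndufv1, Ndufa4, Ndufa4l2, Ndufb8, Sdha, Sdhb, Uqcrc1, Uqcrfs1, Cox4i1, Cox4i2, Cox5a, Cox6a1, Cox6a2, Cox7a1, Cox7a2, Cox8a, Cox8b, Atp5f1a, Atp5f1b, Atp5mc1, Atp5mc2, Atp5mc3 and Atp5if1, the highest and lowest members, those not detected, and in each other list the genes called and the one with the smallest p. Cox6b2, Cox7a2l, Ndufa10l1 and the other genes named with a count were named after their values were seen.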

Additional observations from a re-analysis of the deposited data

Results flagged for a closer look

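Among 90 groups of 4 values examined for an outlying sample, 3 had one, where chance flags about 1 in 20. Ndufs1 had 36.7 FPKM in JZL184 library 1, where the nearest of the other JZL184 libraries had 10.0. Sdhb had 172 FPKM in JZL184 library 2 and at most 135 in the others, and Uqcrc1 had 198 FPKM in JZL184 library 3 and at most 178 in the others.

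Rows of chrMT that encode no protein were not part of the comparisons, and some of their values exceeded 3 times the highest control library. The ribosomal RNA mt-Rnr1 had 1377 CPM in JZL184 library 4, where the highest control library had 285 CPM. Trnm, the transfer RNA of methionine, whose gene lies between ND1 and ND2, had 36.3 CPM in SAP library 1, 53.7 in SAP library 2 and 12.8 in JZL184 library 3, against at most 4.22 in control. Trnk, the transfer RNA of lysine, whose gene lies between COX2 and ATP8, had 13 CPM in SAP library 1, 19.0 in SAP library 2, 9.07 in JZL184 library 3 and 7.74 in JZL184 library 4, against at most 2.25 in control. These differences were not tested.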

How the results depend on the processing

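The medians of the nuclear members stayed below 0 against control in every alternative run, and in JZL184 against SAP the median was -0.14 without SAP libraries 1 and 2. Of 322 values over comparisons and settings, 260 moved by less than the limit set and 62 moved by more. Of 2020 values of single members, 77 changed sign, 54 gained and 8 lost a call, and 1881 did neither. Among single replicates left out, JZL184 replicate 1 moved the count of calls over all genes most, to 655 in JZL184 against SAP and 1867 in JZL184 against control, while without JZL184 replicates 2, 3 and 4 the latter count was 25, 860 and 78, and without control sample 1-2 and 3 it was 0 and 1. With 2 control samples the exact tests could not go below p = 0.0667, and removing either leaves 1, which is assumed to vary like the other group. The replicate numbers did not pair the samples (correlations of deviations between -0.449 and 0.123), so that the replicate block is a check only. DESeq2 with separate control libraries was chosen after seeing the data. The cause of these changes was not tested. A gene at 0 reads in most libraries, such as Ndufb4l1-ps1, could not be compared at this depth.

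Of all genes in SAP against control, the calls numbered 33 with separate control libraries, 208 with DESeq2, 14 with limma-voom, 14 with no filter on low counts, 4 with all 3 groups in 1 fit, 1 with the replicate block, 2 with the replicate block and length offsets, 74 without SAP libraries 1 and 2, 5859 without SAP libraries 3 and 4 and 1434 with DESeq2 and separate control libraries, and between 0 and 3 when single replicates were left out. Of all genes in JZL184 against SAP, the calls numbered 1283 with DESeq2, 699 with limma-voom, 27 with no filter on low counts, 207 with all 3 groups in 1 fit, 33 with length offsets and 2912 without SAP libraries 3 and 4, and between 0 and 655 when single replicates were left out. Of all genes in JZL184 against control, the calls numbered 2800 with separate control libraries, 1899 with DESeq2, 2906 with limma-voom, 220 with library size alone, 929 with no filter on low counts, 1488 with the replicate block, 1188 with the replicate block and length offsets and 3498 with DESeq2 and separate control libraries, and between 0 and 1867 when single replicates were left out. In SAP against control, called nuclear members numbered 65 without SAP libraries 3 and 4 and 2 with DESeq2 and separate control libraries. These fits called 37.2 and 6.16% of all genes. In SAP against control, called chrMT genes numbered 4 without SAP libraries 3 and 4, where 37.2% of all genes were called. In JZL184 against SAP, called nuclear members numbered 29 without SAP libraries 3 and 4, and 0 to 1 with a replicate left out. The first fit called 18.1% of all genes, and those with a replicate left out called up to 4.21%. In JZL184 against SAP, called chrMT genes numbered 1 with DESeq2 (5.35% of all genes), 1 with limma-voom (4.57%) and 2 without SAP libraries 3 and 4 (18.1%). They numbered 0 to 1 with a replicate left out (up to 4.21%). In JZL184 against control, called nuclear members numbered 6 with separate control libraries (18.1% of all genes) and 3 with DESeq2 (8.07%). They numbered 5 with limma-voom (18.3%), 3 with the replicate block (9.65%) and 2 with the replicate block and length offsets (7.70%). With DESeq2 and separate control libraries they numbered 5 (14.9%). None was called with DESeq2 size factors in edgeR (2.15%), chrMT rows removed (2.13%), all 3 groups in 1 fit (2.23%) or length offsets (2.09%). With a JZL184 replicate left out they numbered at most 2, where the fits called between 25 and 1867 of all genes. In JZL184 against control, called chrMT genes numbered 2 with separate control libraries (18.1% of all genes) and 2 with DESeq2 and separate control libraries (14.9%). The chrMT median moved by more than its spread in SAP against control with length offsets (0.80), SAP against control with the replicate block and length offsets (1.0) and JZL184 against SAP without SAP libraries 1 and 2 (0.80).

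Without SAP libraries 1 and 2, the sign turned in SAP against control for Atp5mc2 (0.086), COX2 (-0.028), COX3 (-0.092), CYTB (-0.064), ND2 (-0.0024), ND4L (-0.43), Ndufa4 (0.013) and Ndufs1 (-0.042) and in JZL184 against SAP for ATP8 (1.27), ND1 (0.82) and ND4L (0.76). With limma-voom, the sign turned in SAP against control for Cox6a2 (-0.040), in JZL184 against SAP for ATP8 (0.097) and in JZL184 against control for Sdhc (-0.018). With the replicate block, the sign turned in SAP against control for Cox6a2 (-0.61), in JZL184 against SAP for Ndufa11 (0.051) and Ndufb2 (0.049) and in JZL184 against control for Atp5mc2 (-0.078) and ND5 (-0.037). Without SAP libraries 3 and 4, the sign turned in SAP against control for Cox6a2 (-1.20), ND5 (0.46) and Ndufaf4 (-0.043) and in JZL184 against SAP for ND2 (-0.056), ND5 (-0.17), Ndufa11 (0.77), Ndufb2 (0.75) and Ndufs8 (0.49). With the replicate block and length offsets, the sign turned in SAP against control for Cox7b (0.19), Cox8a (0.0056), ND3 (0.12), ND5 (0.30), ND6 (0.47), Ndufa4 (0.15) and Sdhb (0.012), in JZL184 against SAP for Cox7b (-0.25) and in JZL184 against control for Cox8a (0.074) and Ndufa4 (0.15). With length offsets, the sign turned in SAP against control for ND3 (0.063), ND5 (0.31), ND6 (0.37) and Ndufa4 (0.072), in JZL184 against SAP for COX2 (-0.015), CYTB (-0.084), Cox7b (-0.24) and ND2 (-0.038) and in JZL184 against control for Cox8a (0.065) and Ndufa4 (0.070). With library size alone, the sign turned in SAP against control for ND5 (0.21) and in JZL184 against control for Cox8a (0.0062). With separate control libraries, the sign turned in JZL184 against control for Atp5mc2 (-0.015). With DESeq2 and separate control libraries, the sign turned in JZL184 against control for Atp5mc2 (-0.039). Leaving out single replicates turned the sign in SAP against control of COX3 (-0.023 to 0.15), Cox6a2 (-0.46 to 0.41), ND5 (-0.44 to 0.49) and Ndufaf4 (-0.15 to 0.26), in JZL184 against SAP of ATP8 (-0.82 to 0.096), ND1 (-0.63 to 0.11), Ndufa11 (-0.28 to 0.20), Ndufb2 (-0.32 to 0.22) and Ndufs8 (-0.33 to 0.047), and in JZL184 against control of Atp5mc2 (-0.17 to 0.24), Cox8a (-0.32 to 0.19), ND4L (-0.019 to 0.71), ND5 (-0.12 to 0.79) and Sdhc (-0.076 to 0.27).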

Other observations

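The 2 ribosomal RNA rows of chrMT took 0.0511 to 0.0645% of the counted reads in control, 0.0599 to 0.0807% in SAP and 0.0759 to 0.236% in JZL184, in libraries made from mRNA. Every JZL184 library lay above all control samples.

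Markers of other cell types gave 4 calls in JZL184 against control and none in the other comparisons (edgeR's quasi-likelihood test, all libraries). These were 2 of 9 macrophage, 1 of 9 smooth muscle and 1 of 8 striated muscle markers tested, where 2.16% of all genes were called. They rest on only 2 control samples. The macrophage genes Cd163, a scavenger receptor for haemoglobin, and Mrc1, the mannose receptor, rose by 2.99 and 2.34 on the log2 scale (adjusted p = 0.0398 and 0.0454). Smtn, a smooth muscle gene, fell by 1.84 and Myh2, a myosin of fast muscle, fell by 4.03 (adjusted p = 0.0461 and 0.0357). The 9 macrophage markers had 5 higher and 4 lower, and all 9 smooth muscle markers were lower, with a median of -0.67. The smooth muscle markers summed to 4933 to 5954 CPM in control and 2666, 2209, 6001 and 1215 CPM in JZL184 libraries 1 to 4. JZL184 library 3, which had the fewest reads on enterocyte markers, thus lay above every control library in this sum. Of 8 neutrophil markers, 7 were higher in SAP than in control, 5 of them without overlap (11.3% of all genes) and none called, with a median of 2.47. Without SAP libraries 1 and 2, all 7 tested were higher with a median of 1.41, and 2 were called, where 0.332% of all genes were called higher.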
